A study of Homo sapiens with 14 samples.

Results

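Small nucleolar RNAs and small Cajal body RNAs are short RNAs that guide chemical changes in other RNAs. Probe sets whose only gene symbol begins with SNORA, SNORD or SCARNA were taken, and for a gene with several the brightest over all arrays was kept. This gave 192 of the 18372 genes measured: 61 box H/ACA RNAs (SNORA), 115 box C/D RNAs (SNORD) and 16 Cajal body RNAs (SCARNA). By their RefSeq type 173 of them are small nucleolar RNAs, 16 other non-coding RNAs and 3 pseudogenes, which are SNORD13P1, SNORD13P2 and SNORD13P3. A further 76 probe sets that list such a symbol beside other genes were left out, because their signal cannot be given to 1 gene.

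The arrays were made from total RNA of 7 human prostate cancer cell lines, with 2 arrays a line from separate passages. Growth conditions were shared by all lines: DMEM, 10% fetal bovine serum, gentamicin and body temperature. PC3-ML is labelled bone metastatic, as are PC3-ML (Clone 1) and PC3-ML (Clone 3), each grown from a single PC3-ML cell, and PC3-N(PDGFRα), a PC3-N line made to overexpress the receptor PDGFRα. Labelled as not bone metastatic are DU-145, its derivative DU-145 (PDGFRα), which overexpresses the same receptor, and PC3-N. The promoter and the method of overexpression were not given, no line without the receptor had been handled the same way, and each clone stands for itself alone. The arrays of a line differ only in passage. Every p below, except those for the bone label, therefore weighs a difference by the spread of passages, which may be technical. Those for the bone label weigh it by the spread of line means. In RNA from whole cultures, fewer cells with an RNA and less of it per cell cannot be told apart.

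Marker genes were read first as a check of the labels. PDGFRA averaged 833.9 ± 23.3 (SD, n = 2) in PC3-N(PDGFRα) and 106.4 ± 4.3 in PC3-N. It averaged 110.9 ± 26.4 in DU-145 (PDGFRα) and 26.9 ± 1.9 in DU-145. Clone 1 read 28.8 ± 3.2 for PDGFRA although PC3-ML read 129.8 ± 36.3 and Clone 3 127.8 ± 3.3. CTNNA1, which PC3 cells are known to have lost, averaged 23.1 to 24.0 in the 5 PC3 lines, and 219.7 and 178.5 in DU-145 lines without and with the receptor. The epithelial genes EPCAM, KRT8 and KRT18 averaged at least 453.7, 213.6 and 58.6 in every line. CDH1, which encodes E-cadherin, averaged 25.9 to 31.7 in the 5 PC3 lines, near the floor, and 165.9 and 53.4 in DU-145 and DU-145 (PDGFRα). HOXB13, of the prostate lineage, averaged 101.1 to 205.7 in the PC3 lines and 34.4 and 31.1 in the DU-145 lines. KLK3, which encodes prostate-specific antigen, did not leave the floor in any line (24.2 to 29.6 over all arrays). Of the leukocyte, endothelial and fibroblast genes, PTPRC, CD3E, CDH5, VWF, DCN and LUM stayed between 19.6 and 25.5 on all arrays. CD14 averaged 25.1 to 29.2, COL1A2 32.9 to 36.5, COL1A1 45.4 to 51.4 and PECAM1 21.9 to 90.3. In all, 18 of 20 listed markers were measured.

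Box C/D RNAs pair with a target and direct the enzyme fibrillarin to methylate the ribose of 1 nucleotide. Box H/ACA RNAs direct dyskerin to turn a uridine into pseudouridine, and Cajal body RNAs serve spliceosomal RNAs in the same ways. Most human members have no promoter of their own: they are cut out of introns of host genes, many of which make ribosomal proteins or exist mainly to carry these RNAs. A common start in such hosts is a C followed by a run of pyrimidines, the 5′ TOP element, which couples translation to growth signals.

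The promoters of 5 hosts are shown because RNAs called lower in the clones or in the PC3 lines lie inside them. GAS5 carries a series of box C/D RNAs, RPL13A carries SNORD32A and SNORD33, RPL27A carries SNORA3B, NOP56 carries SNORD57 and TNPO2 carries SNORD41. Each stretch runs 5′ to 3′ on the gene's strand, from 60 bases before to 20 bases after the first annotated start, from RefSeq (GRCh38.p14). Capitals mark the start base or, where the start is a C, the whole run of C and T that begins there. The windows are chr1:173869026-173869105 (minus strand) for GAS5, chr19:49487548-49487627 (plus) for RPL13A and chr11:8682732-8682811 (plus) for RPL27A. Those of NOP56 and TNPO2 are chr20:2652572-2652651 (plus) and chr19:12723913-12723992 (minus).
GAS5: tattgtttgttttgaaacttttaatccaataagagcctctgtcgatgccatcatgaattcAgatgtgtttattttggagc
RPL13A: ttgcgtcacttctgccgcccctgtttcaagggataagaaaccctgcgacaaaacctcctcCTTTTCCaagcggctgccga
RPL27A: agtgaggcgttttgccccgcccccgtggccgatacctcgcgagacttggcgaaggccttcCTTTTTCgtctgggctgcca
NOP56: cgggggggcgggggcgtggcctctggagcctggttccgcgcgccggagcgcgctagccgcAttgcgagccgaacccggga
TNPO2: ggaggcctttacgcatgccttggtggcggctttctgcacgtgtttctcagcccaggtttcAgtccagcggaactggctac

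A C with at least 5 pyrimidines in a row stood at the first listed start of 28 of the 100 promoters whose gene span holds a measured member (28%). It stood at the first start of 1104 of all 27305 promoters (4.04%). The run was read on the gene's strand only. RPL13A and RPL27A have such a run of 7 bases, and GAS5, NOP56 and TNPO2 start with an A at the site listed here.

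On these arrays most of the RNAs lay near the floor. The median intensity over all arrays was 28.6 for the H/ACA RNAs (highest 171.1), 27.2 for the C/D RNAs (highest 747.7) and 32.5 for the Cajal body RNAs (highest 940.7). All 18372 genes had a median of 36.8. The highest line mean was above 30.8, the median of all values, for 33 of 61 H/ACA, 59 of 115 C/D and 9 of 16 Cajal body RNAs. That made 101 of the 192 (52.6%), against 66.2% of all genes. The members' median SD between passages was 0.110 on the log2 scale, against 0.0930 for all genes. Intensities of different probe sets depend on the probes, so these levels give no order of abundance.

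The H/ACA RNAs had a median length of 134 nucleotides, the C/D RNAs 81 and the Cajal body RNAs 226.5. How much of the RNA this short the extraction column held was not measured, and its part in the levels was not tested.

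The brightest C/D RNAs were SNORD13, SNORD46, SNORD13P3, SNORD57, SNORD116-6 and SNORD81. SNORD13, known as U13, pairs with 18S ribosomal RNA and directs its acetylation in place of a methylation. SNORD46 and SNORD57 are guides for ribose methylation of ribosomal RNA. The brightest H/ACA RNAs were SNORA57, SNORA3B, SNORA33, SNORA10, SNORA80A and SNORA71D, of the class that guides pseudouridine formation in ribosomal RNA. SCARNA9, SCARNA9L and SCARNA17 led the Cajal body RNAs, and SCARNA9 and SCARNA17 guide changes in spliceosomal RNAs.

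Across the 7 lines 57 of the 192 RNAs (29.7%) differed by limma's moderated F test at an adjusted p under 0.05, against 38% of all genes. They were 14 of 61 H/ACA (23.0%), 36 of 115 C/D (31.3%) and 7 of 16 Cajal body RNAs (43.8%). The other 135 members did not pass. SNORD79 had the lowest adjusted p of that test (6.1e-07), followed by SNORD13P1 (7.4e-06) and SNORD41 (2.2e-05).

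The highs and lows fell on few lines. Of the 57, 24 were highest in DU-145 (PDGFRα) and 21 in PC3-ML, while none was highest in PC3-N or PC3-N(PDGFRα). The lowest mean lay in Clone 1 for 19 and in Clone 3 for 14. The same lines led when all 192 were counted: 73 were highest in DU-145 (PDGFRα) and 51 in PC3-ML, and 53 were lowest in Clone 1 and 41 in Clone 3. Such counts were not made over all genes. The median log2 deviation of a line from a gene's mean was, over all genes, also lowest in Clone 1 (-0.020) and Clone 3 (-0.014). It was highest in DU-145 (PDGFRα) (0.010). Over the members these medians were -0.028, -0.028 and 0.048.

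**Figure D1:**
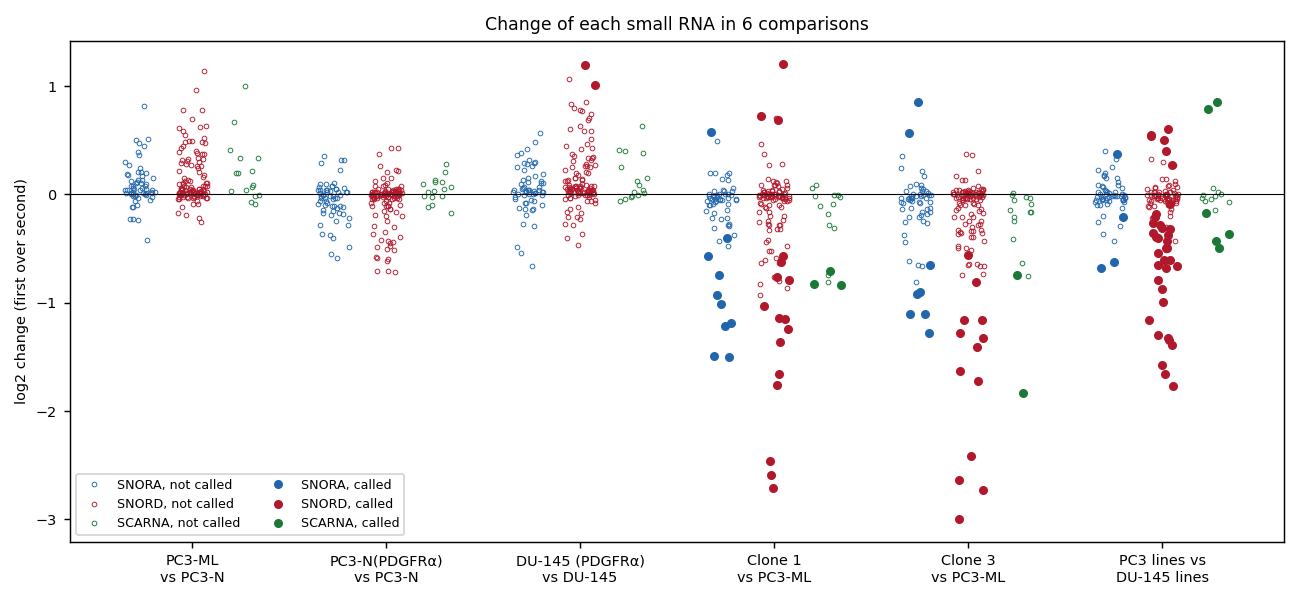
Log2 change of each of the 192 RNAs (vertical axis) in 6 comparisons (horizontal axis), by class, with filled points for RNAs called at an adjusted p under 0.05. Filled points reach -2.71 in Clone 1 and -2.996 in Clone 3 against PC3-ML, are absent from PC3-ML against PC3-N and from PC3-N(PDGFRα) against PC3-N, and number 2 in DU-145 (PDGFRα) against DU-145.

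Both single-cell clones had lower levels of many of the RNAs than the parent line PC3-ML. In Clone 1, 26 fell and 4 rose. Those that fell are 13.5% of the members, against 4.77 percent of all genes called lower in that comparison, and those that rose stand against 9.01 percent of all genes called higher. In Clone 3, 21 fell (10.9%) and 2 rose, against 2.9 percent of all genes called lower and 5.2 percent called higher. In either direction 13.8 percent and 8.1 percent of all genes were called. By class, 9 H/ACA, 14 C/D and 3 Cajal body RNAs fell in Clone 1, and 6, 13 and 2 in Clone 3.

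Single arrays moved these counts. Without PC3-ML replicate 1, 14 members (7.29%) were called in Clone 1 and 9 (4.69%) in Clone 3, in either direction, where 6.602% and 2.35% of all genes were. Without Clone 1 replicate 2, 15 were called in Clone 1 (7.81%, against 6.84% of all genes). Without Clone 3 replicate 1, 12 were called in Clone 3 (6.25%, against 3.12%). The calls that held whichever array was left out were 11 of 30 in Clone 1, of which 10 were lower, and 9 of 23 in Clone 3, all lower. In Clone 1 these were SNORD13, SNORD13P3, SNORD41, SNORD57, SNORD46, SNORD33, SNORD32A, SNORA5A, SNORA3B and SNORA57 on the lower and SNORD116-14 on the higher side. In Clone 3 they were SNORD116-6, SNORD116-21, SNORD13, SNORD13P3, SNORD41, SNORD46, SNORD57, SNORD32A and SNORD33. Each other call named below for these comparisons was lost without at least 1 array. With an intensity trend in the prior, 46 members were called in Clone 1, a setting whose share of all genes is not given here.

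SNORD13 showed one of the largest falls. Its arrays read 1730.4 and 1263.3 in PC3-ML, 824.3 and 903.3 in PC3-N and 942.3 and 971.7 in PC3-N(PDGFRα). DU-145 read 1200.0 and 1037.4, and DU-145 (PDGFRα) read 1792.2 and 2021.8. Clone 1 read 286.5 and 178.5 and Clone 3 read 164.0 and 302.6, so the 4 clone arrays lay below every other array. The fall against PC3-ML was 6.54-fold in Clone 1 (log2 change -2.71, SE 0.28, limma adjusted p = 0.00034). In Clone 3 it was 6.64-fold (-2.73, SE 0.28, adjusted p = 0.00081).

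SNORD13P3, annotated as a pseudogene of SNORD13, followed it. PC3-ML read 1297.5 and 834.1, Clone 1 229.1 and 129.4 and Clone 3 135.7 and 206.9. The other 8 arrays lay between 379.2 and 1337.4, again above all clone arrays. The change was -2.59 in Clone 1 and -2.63 in Clone 3 (SE 0.33, limma adjusted p = 0.00086 and 0.0018). Across the 7 line means it correlated with SNORD13 at r = 0.993, a description only, since copies this alike can share probes and signal and their values are uncertain as measures of 2 separate RNAs. SNORD13P1, another copy, read 19.4 and 20.4 in Clone 1 and 21.0 and 20.4 in PC3-ML, at the floor in both. SNORD13P2 spread widely between passages, with 29.7 and 69.4 in PC3-ML, and was not called in Clone 1 (-0.52, SE 0.46) or Clone 3 (0.02).

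SNORD46 read 1032.5 and 1034.5 in PC3-ML, 354.5 and 300.9 in Clone 1 and 296.6 and 374.9 in Clone 3. The lowest of the 10 arrays outside the clones read 588.2, in PC3-N. The log2 changes were -1.66 and -1.63 (SE 0.18, limma adjusted p = 0.00035 and 0.00088). Its line means followed those of SNORD13 with r = 0.993 over 7 lines, although the RNAs come from different loci.

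SNORD41, inside TNPO2, dropped to near the floor in both clones. PC3-ML read 209.0 and 167.2, PC3-N 125.0 and 142.8, and PC3-N(PDGFRα) 164.5 and 182.9. DU-145 read 101.1 and 83.9 and DU-145 (PDGFRα) 118.6 and 164.4. Clone 1 read 31.7 and 36.1 and Clone 3 29.1 and 42.1, and every clone array lay below all the others. The fall was 5.52-fold in Clone 1 and 5.34-fold in Clone 3 (log2 -2.47 and -2.42, SE 0.20, limma adjusted p = 0.00010 and 0.00025). A level near the floor makes these folds low estimates.

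SNORD57, one of the RNAs within NOP56, itself a core protein gene of box C/D particles, read 1042.6 and 900.9 in PC3-ML, 295.6 and 277.6 in Clone 1 and 417.3 and 449.5 in Clone 3. The DU-145 lines, at 309.8 to 443.6, overlapped Clone 3. Against PC3-ML the change was -1.76 (SE 0.17, limma adjusted p = 0.00022) and -1.16 (SE 0.17, 0.0035).

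**Figure D2:**
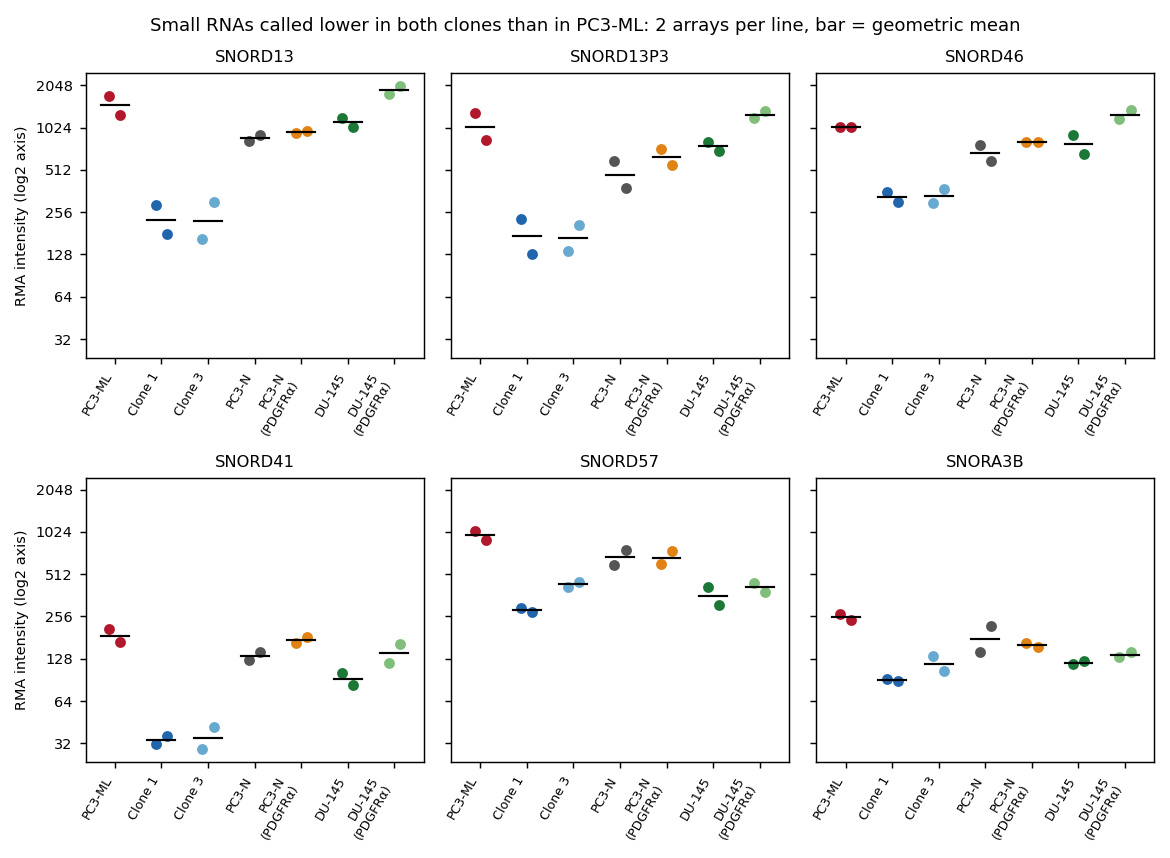
Intensity (log2 axis) of 6 small RNAs in the 7 lines, with a point for each of 2 arrays per line and a bar at their geometric mean. For SNORD13, SNORD13P3, SNORD46 and SNORD41 both clones sit below every other line, while SNORD57 and SNORA3B in Clone 3 reach the range of the DU-145 lines.

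Of 4 RNAs in introns of RPL13A, a ribosomal protein gene, 2 fell in each clone. SNORD32A read 88.5 and 85.8 in PC3-ML, 38.5 and 40.3 in Clone 1 and 33.6 and 36.1 in Clone 3. SNORD33 read 90.5 and 60.9, then 31.2 and 31.6, then 28.4 and 32.8. Their changes lay between -1.15 and -1.32. SNORD34 and SNORD35A from the same transcript changed by -0.01 and -0.20 in Clone 1 and by -0.02 and -0.33 in Clone 3 and were not called, but their arrays were at or near the floor. SNORD28, in the non-coding host SNHG1, fell in Clone 1 (-1.03, SE 0.22), and SNORD30 from that host did not pass (-0.83, SE 0.29).

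Among the H/ACA RNAs the widest range between lines belonged to SNORA5A, within TBRG4. It read 72.9 and 57.4 in PC3-ML, 24.5 and 21.3 in Clone 1 and 29.5 and 30.7 in Clone 3, a change of -1.50 and -1.10 (SE 0.20, limma adjusted p = 0.0010 and 0.0091). In DU-145 (PDGFRα) it read 27.7 and 28.0, so the clones were not alone at the low end. SNORA3B, within RPL27A, read 267.0 and 241.1 in PC3-ML and 92.3 and 88.6 in Clone 1, and 134.1 and 103.9 in Clone 3. It changed by -1.49 and -1.10 (SE 0.17). SNORA57, the brightest of the class, read 205.4 and 240.4 in PC3-ML, 115.6 and 104.7 in Clone 1 and 143.7 and 139.1 in Clone 3.

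SNORA50A, within CNOT1, fell by 1.19 and 1.28 on the log2 scale (SE 0.21), from 86.2 and 70.6 in PC3-ML to 38.0 and 30.9 in Clone 1 and 30.6 and 33.8 in Clone 3. SNORA10 read 157.4 and 157.6 in PC3-ML, 65.6 and 69.9 in Clone 1 and 98.1 and 72.3 in Clone 3. It has 2 probe sets, whose line means were within 1 unit of each other in every line, as probes of near-identical copies would be. SNORA33 did not pass in either clone (0.20 and -0.66, SE 0.30), and its DU-145 arrays alone read 114.8 and 197.6.

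The Cajal body RNAs called lower were SCARNA17, SCARNA9 and SCARNA7 in Clone 1 and SCARNA17 and SCARNA9L in Clone 3. SCARNA17 read 112.4 and 80.0 in PC3-ML, 57.3 and 49.1 in Clone 1 and 60.9 and 52.6 in Clone 3 (-0.84 and -0.75, SE 0.15, limma adjusted p = 0.0056 and 0.017). SCARNA9 fell in Clone 1 (-0.83, SE 0.21, adjusted p = 0.029) and did not pass in Clone 3 (-0.41, adjusted p = 0.32). Its arrays read 1565.5 and 1114.0 in PC3-ML, 908.6 and 608.3 in Clone 1 and 1007.2 and 974.7 in Clone 3.

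SCARNA9L, a relative of SCARNA9 on another chromosome, read 646.1 and 451.1 in PC3-ML, 392.6 and 242.7 in Clone 1 and 132.6 and 172.6 in Clone 3. Only the last was called (-1.84, SE 0.33, adjusted p = 0.0096), and the call was lost without PC3-ML replicate 1 or without Clone 3 replicate 1, with a highest adjusted p of 0.094. SCARNA5, a guide for a spliceosomal RNA, changed by -0.74 and -0.76 in the clones, and neither passed (adjusted p = 0.051 and 0.067).

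The 2 lists of RNAs called lower shared 17 members, which are 65.4% of Clone 1's list and 81.0% of Clone 3's. Both comparisons use the same PC3-ML arrays, and the overlap was not counted over all genes. Set against PC3-N, a choice added after the data had been seen, 18 fell and 5 rose in Clone 1 and 11 fell and 0 rose in Clone 3. Of all genes 5.11 percent were called lower and 8.02 percent higher in Clone 1 there (13.1 percent in all), and 2.69 percent and 4.16 percent in Clone 3 (6.86 percent in all). Without Clone 1 replicate 2 the count in Clone 1 was 10, and without replicate 1 it was 14. It was 15 without PC3-N replicate 2. In Clone 3 it was 5 and 6 without its replicate 1 or 2. With all arrays, the share of members called in either direction was already below that of all genes. It was 11.98% against 13.1 percent in Clone 1 and 5.73% against 6.86 percent in Clone 3. It stayed below that of all genes without each of the arrays just named. The calls that held whichever array was left out were 8 of 23 in Clone 1 and 3 of 11 in Clone 3, the latter being SNORD116-6, SNORD13 and SNORD41.

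Lower in both clones against both lines were 7 RNAs: SNORA50A, SNORD13, SNORD13P3, SNORD33, SNORD41, SNORD46 and SNORD96A. That count, too, was not made over all genes. Against PC3-N the change of SNORD13 was -1.93 in Clone 1 and -1.95 in Clone 3 (SE 0.28, limma adjusted p = 0.0019 and 0.0033). SNORD41 changed by -1.98 and -1.93 (SE 0.20), and SNORD46 by -1.04 and -1.01 (SE 0.18). These changes were smaller in size than against PC3-ML, which read higher than PC3-N for all 3.

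Few of the RNAs rose in the clones. In Clone 1 SNORD116-14, SNORD116-20, SNORD59B and SNORA7B were called higher, and in Clone 3 SNORA70G and SNORA7B. SNORA7B read 26.8 and 31.98 in PC3-ML, 43.3 and 43.9 in Clone 1 and 49.4 and 37.9 in Clone 3 (0.58 and 0.56, SE 0.15). SNORA70G read 25.6 and 33.2 in PC3-ML and 43.6 and 63.3 in Clone 3 (0.85, SE 0.17). SNORD59B read 53.0 and 43.3 in PC3-ML and 83.9 and 71.2 in Clone 1 (0.69, SE 0.20, limma adjusted p = 0.044). With the replicate block that last call was lost, as it was with quantile normalization.

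The medians of the H/ACA, C/D and Cajal body RNAs were -0.05, -0.04 and -0.14 in Clone 1 against PC3-ML and -0.06, -0.05 and -0.16 in Clone 3. All genes had medians of -0.02 and -0.01. Over the 35 members with a mean intensity above 64 the median change was -0.81 in Clone 1, with 17 called lower (48.6%) and 1 higher, and -0.65 in Clone 3, with 15 called lower (42.9%) and 0 higher. The 5568 genes of all kinds above that level had medians of 0.10 and 0.09, with 10.1% and 6.41% called lower and 21.9% and 13.8% called higher.

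Counted at all intensities, short RNAs outside these families were called lower in the clones about as often as genes of all kinds, but the brighter ones more often. Among 196 genes for microRNAs, small nuclear RNAs and similar short RNAs, chosen after the data had been seen, 7 fell (3.57%) and 0 rose in Clone 1, and 5 fell (2.55%) and 1 rose in Clone 3, with medians of -0.03 and -0.01. Above an intensity of 64, 10.1% of genes of all kinds fell in Clone 1 and 6.41% in Clone 3. Of the 11 short RNAs above that level, 4 (36.4%) fell in each clone, and the medians over the 11 were -0.39 and -0.31. One is TERC, the telomerase RNA, which has a box H/ACA domain of its own. It averaged 112.2 ± 15.2 (SD, n = 2) in PC3-ML, 112.0 ± 18.3 in PC3-N, 50.1 ± 1.7 in Clone 1 and 55.5 ± 0.8 in Clone 3, a change of -1.16 and -1.01 against PC3-ML (limma adjusted p = 0.00037 and 0.0017). RNU4ATAC, of the minor spliceosome, changed by -1.07 and -0.83, and RPPH1, the RNA of ribonuclease P, by -0.68 and -1.23. The part of a difference in short RNA as a whole in the falls of the small nucleolar RNAs was not tested.

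Across the clones the SNORD116 copies did not move together. They lie in tandem within SNHG14 in the imprinted Prader-Willi region of chromosome 15, have no settled ribosomal target, and are best known from brain. Of 20 measured copies 6 passed the filter on dim probe sets, and their median intensity was 21.4. By the F test 7 of the 20 were called, where 38% of all genes were. In the PC3 lines 7 were called lower and 1 higher than in the DU-145 lines, against 16.5% and 22.3% of all genes. Against PC3-ML, 2 were called higher and 0 lower in Clone 1, where 9.01% and 4.77% of all genes were. In Clone 3, 0 were called higher and 3 lower, against 5.2% and 2.9% of all genes. The copies are near-identical in part, and each value is uncertain as a measure of that copy alone.

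SNORD116-6, the brightest, had the widest range of any member, 4.12 on the log2 scale. It read 260.0 and 460.9 in PC3-ML, 381.7 and 448.7 in PC3-N and 438.8 and 380.3 in PC3-N(PDGFRα). DU-145 read 591.4 and 964.3, and DU-145 (PDGFRα) 543.2 and 546.2. Clone 1 was lower at 146.5 and 225.4, and Clone 3 lowest at 41.6 and 45.2. Clone 3 differed from PC3-ML by 7.98-fold (log2 -2.996, SE 0.30, limma adjusted p = 0.00066). Clone 1 was not called against PC3-ML (-0.93, adjusted p = 0.068) and was against PC3-N (-1.19, adjusted p = 0.025).

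SNORD116-14 was highest in Clone 1. It read 120.2 and 129.3 there, 49.7 and 58.6 in PC3-ML, 26.4 and 39.8 in Clone 3 and 106.1 and 85.8 in DU-145 (PDGFRα), with 32.9 to 47.8 on the other 6 arrays. It rose in Clone 1 against PC3-ML (1.21, SE 0.21, limma adjusted p = 0.0043) and did not pass in Clone 3 (-0.73, adjusted p = 0.065). SNORD116-20 was called in opposite directions: 99.3 and 119.6 in Clone 1 (0.72) and 45.2 and 44.5 in Clone 3 (-0.56), against 60.7 and 71.7 in PC3-ML. SNORD116-21 read 114.1 and 94.3 in Clone 1, 99.4 and 73.0 in PC3-ML and 25.5 and 26.2 in Clone 3, where it fell (-1.72, SE 0.23, adjusted p = 0.0025). SNORD116-15 and SNORD116-1 were also above the filter. They read 184.7 and 144.5 and 31.1 and 29.4 in PC3-ML.

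**Figure D3:**
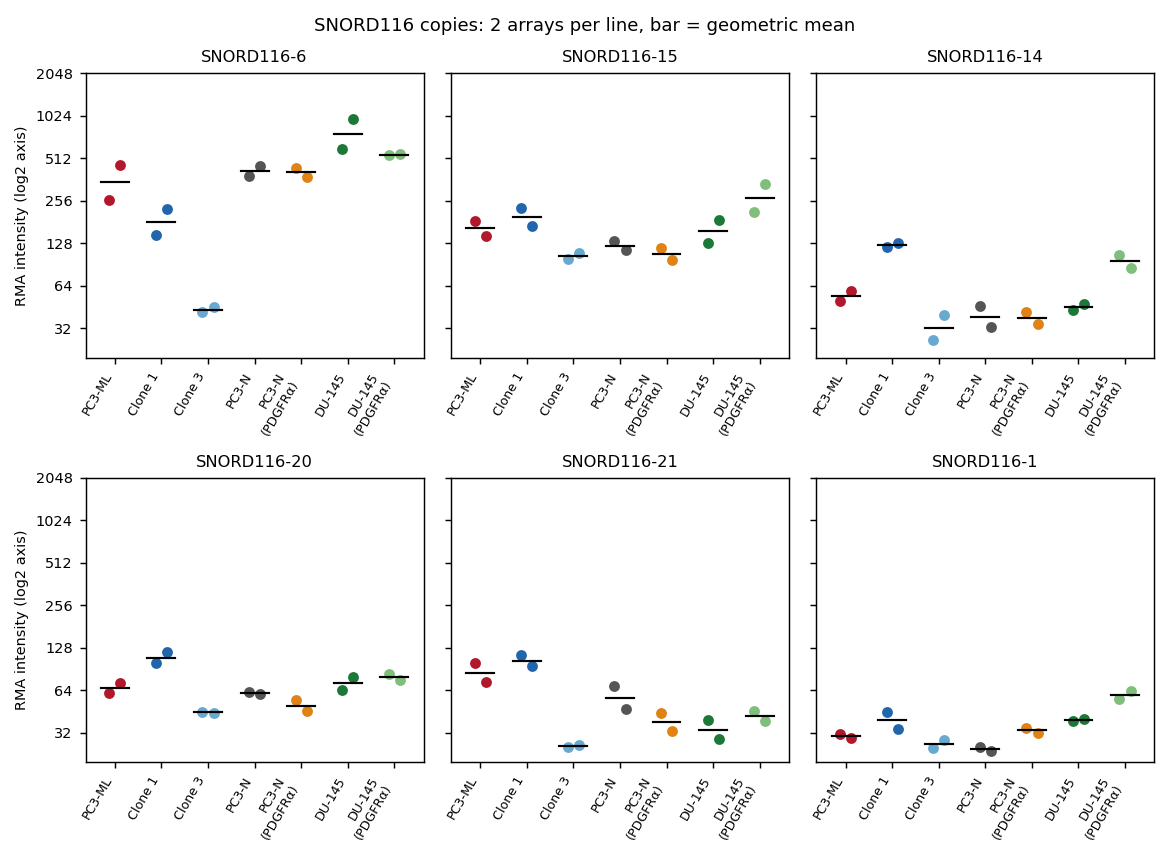
Intensity (log2 axis) of the 6 SNORD116 copies that passed the filter on dim probe sets, with a point for each of 2 arrays per line and a bar at their geometric mean. Clone 3 has the lowest mean for each but SNORD116-1, and Clone 1 is highest for SNORD116-14, SNORD116-20 and SNORD116-21.

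The neighbouring SNORD115 cluster lay at the floor in all lines. Its 20 measured copies read between 18.9 and 22.4 on every array. The 2 SNORD113 and 4 SNORD114 copies of the imprinted cluster on chromosome 14 were at the floor too, with a highest line mean of 22.5. None of these 26 copies passed the filter.

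The 5 PC3 lines together differed from the 2 DU-145 lines in 47 of the 192 RNAs, of which 38 were lower in the PC3 lines and 9 higher. Among all genes 16.5 percent were lower and 22.3 percent higher, and 38.8 percent were called in either direction. With the median over members removed from each array, the split was 33 lower and 15 higher. C/D RNAs made up 31 of the lower and 6 of the higher calls, H/ACA RNAs 3 and 1, and Cajal body RNAs 4 and 2. For 13 of the 47 called members the PC3 and DU-145 arrays did not overlap, a share that was not counted over all genes. The lines of each kind share a parent, so the comparison sets 1 origin against another. Of any array left out, the lack of DU-145 replicate 2 left the fewest members called, and also the fewest of all genes. Of the 47 calls 30 held whichever array was left out, 24 lower and 6 higher.

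The RNAs carried by GAS5 led the lower side. GAS5 is a non-coding gene known for rising when growth stops and for its many intronic box C/D RNAs. Of 10 listed RNAs 7 were measured, and all 7 were lower in the PC3 lines, with a median change of -1.30. Against DU-145, SNORD79 had the lowest p of all members (-1.65, SE 0.06, limma adjusted p = 1.5e-08). GAS5 itself had no probe set with 1 symbol and was not analysed here.

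SNORD79 read 37.7 to 51.0 on the 10 arrays of the PC3 lines, while DU-145 read 96.2 and 101.4 and DU-145 (PDGFRα) 212.8 and 186.0. The kinds of line did not overlap. For SNORD81 DU-145 read 549.3 and 682.5, DU-145 (PDGFRα) 850.3 and 643.4, and the PC3 lines 112.1 to 320.5 (-1.76, SE 0.17, limma adjusted p = 2.0e-05). SNORD78 read 119.4 and 115.7, then 206.3 and 212.9, against 33.4 to 84.7 in the PC3 lines (-1.39, SE 0.17).

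For SNORD75 DU-145 read 129.0 and 134.1, DU-145 (PDGFRα) 174.4 and 108.6, and the PC3 lines 40.6 to 100.9 (-1.30, SE 0.14). SNORD74 read 215.8 and 172.6, then 210.9 and 128.7, against 56.0 to 120.9 (-0.99, SE 0.13), and SNORD44 33.6 and 32.8, then 39.2 and 44.5, against 22.1 to 27.4 (-0.60, SE 0.05). For all of these the DU-145 arrays were the higher without overlap. SNORD77 lay at the floor, between 19.4 and 22.0 on all arrays. Its change of -0.09 was the 1 of 7 lost when an array was left out, with a highest adjusted p of 0.10.

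**Figure D4:**
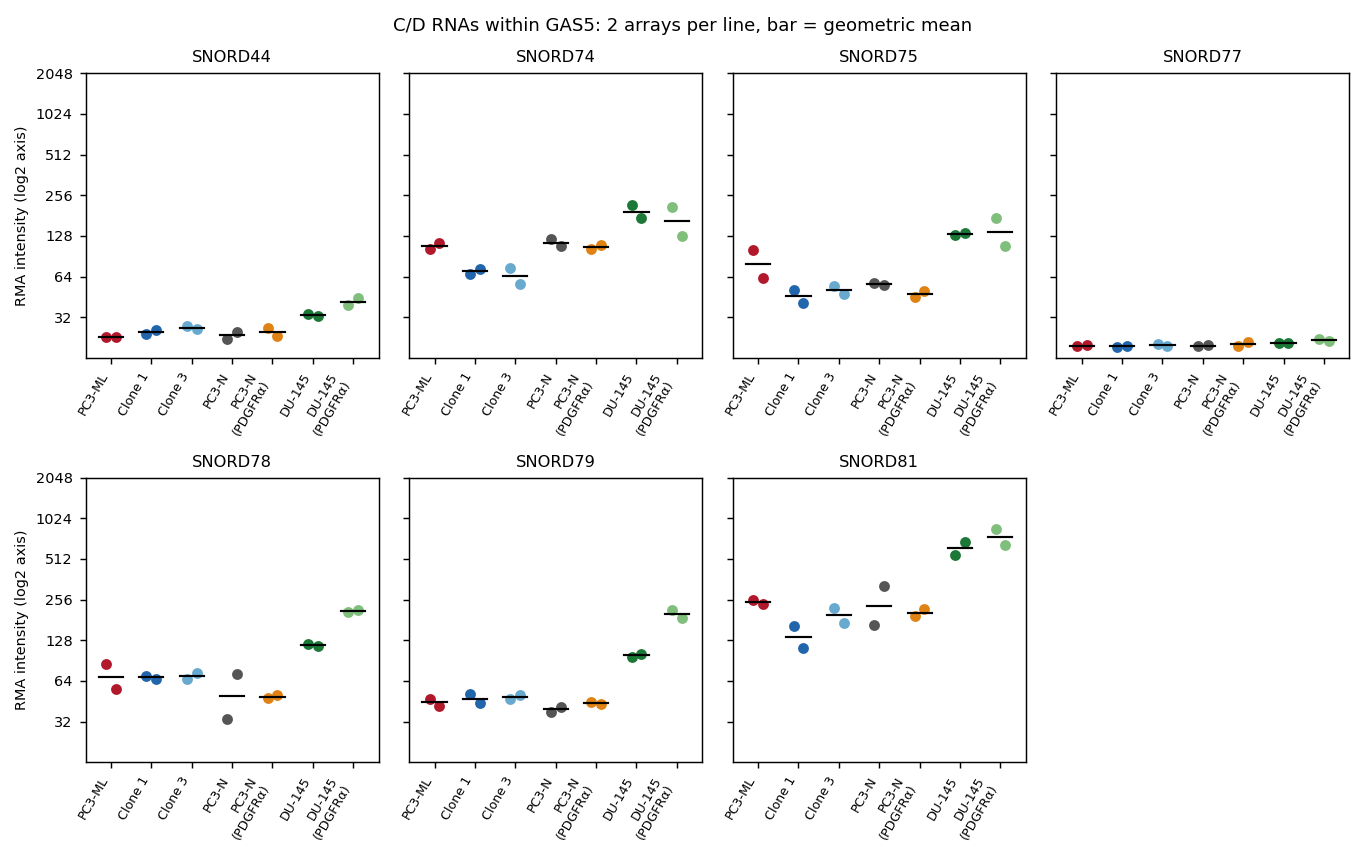
Intensity (log2 axis) of the 7 measured RNAs carried by GAS5 in the 7 lines, with a point for each of 2 arrays per line and a bar at their geometric mean. The DU-145 lines are the highest for SNORD44, SNORD74, SNORD75, SNORD78, SNORD79 and SNORD81, and SNORD77 stays between 19.4 and 22.0.

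Outside GAS5, lower levels in the PC3 lines included SNORD116-6 (-1.58, SE 0.17), SNORD13 (-1.35, SE 0.17), SNORD13P3 (-1.32, SE 0.19) and SNORD46 (-0.79, SE 0.10). The means of the PC3 lines for these include the clones, which were the lowest lines. SNORD52 changed by -0.87, and the H/ACA RNAs SNORA21 and SNORA80E by -0.68 and -0.63. For SNORA21 DU-145 read 37.2 and 52.8, DU-145 (PDGFRα) 63.9 and 45.1, and the PC3 lines 25.5 to 35.0. SNORA80E read 52.4 and 58.7, then 99.2 and 67.7, against 34.8 to 51.1.

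Higher in the PC3 lines were SCARNA5 (0.85, SE 0.13, limma adjusted p = 0.00042), SCARNA9L (0.79, SE 0.20), SNORD59B (0.60, SE 0.12), SNORD116-21 (0.55, SE 0.14), SNORD57 (0.54, SE 0.10) and SNORA71A (0.37), among 9. The clones did not all follow. For SNORD57 both Clone 1 arrays lay below every array of the DU-145 lines, and for SNORD116-21 Clone 3 had the lowest mean of all lines. For SCARNA9L Clone 3 averaged 152.6, below the 225.6 of DU-145 (PDGFRα). The second SCARNA9L probe set, near the floor, averaged 23.8 to 30.5 in the PC3 lines and 26.4 and 28.0 in the DU-145 lines. For SCARNA5 DU-145 read 37.8 and 36.3, DU-145 (PDGFRα) 51.2 and 45.3, and the PC3 lines 51.6 to 110.7. Clone 3 replicate 1 set the low end of that range, just above the highest DU-145 array. The SCARNA9L call was lost with 1 array left out (highest adjusted p = 0.053).

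PDGFRα overexpression went with 2 called members in DU-145 and 0 in PC3-N. In DU-145 (PDGFRα) SNORD13P1 and SNORD79 rose, against 0.0653 percent of all genes called higher, 0.245 percent called lower and 0.31 percent called in either direction. For SNORD13P1 DU-145 read 32.5 and 28.1, DU-145 (PDGFRα) read 78.0 and 61.0, and the PC3 lines 19.4 to 21.7 on all arrays (1.19, SE 0.11, limma adjusted p = 0.0045). For SNORD79, given above, the change was 1.01 (SE 0.10, adjusted p = 0.0051). Both calls held with any 1 array left out. Without DU-145 replicate 2 more members were called, as were more of all genes.

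Other bright RNAs were higher in DU-145 (PDGFRα) without passing. SNORD13 differed by 0.77 (SE 0.28, limma adjusted p = 0.29), SNORD46 by 0.70 (SE 0.18, 0.13), SNORD78 by 0.83 (SE 0.29, 0.26) and SNORD116-14 by 1.07 (SE 0.21, 0.074). The median over the 35 brighter members was 0.23, and 28 of them were above 0. At an unadjusted p under 0.05 there were 24 higher and 5 lower members, which is 15.1% of them against 13.0% of all genes.

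In PC3-N(PDGFRα) none of the 192 was called against PC3-N by limma, where 2.2 percent of all genes were, 1.52 percent being higher and 0.68 percent lower. At an unadjusted p under 0.05 there were 2 higher and 13 lower members (7.81%, against 13.7% of all genes), and no other tool was run. The lowest adjusted p belonged to SNORA80B, which read 51.8 and 59.0 in PC3-N and 42.4 and 41.2 in PC3-N(PDGFRα) (-0.40, SE 0.09, adjusted p = 0.053). The median of the 35 brighter members was -0.17.

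The difference between the 2 effects, PC3-N minus DU-145, was called for the same 2 RNAs and for 0.533 percent of all genes, 0.419 percent being higher and 0.114 percent lower. It was -1.19 for SNORD13P1 (SE 0.16, limma adjusted p = 0.014) and -0.86 for SNORD79 (SE 0.14, adjusted p = 0.033). Neither call held with every array: the highest adjusted p with 1 array left out was 0.059 and 0.11. Without either array of PC3-N(PDGFRα) none was called. Fewer than with all arrays were called without either array of PC3-N or of Clone 3, or without DU-145 (PDGFRα) replicate 1. Without DU-145 replicate 2 more were, as were more of all genes.

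PC3-ML and PC3-N, sublines of PC3 that differ in the bone label, gave 0 called members by limma, against 0.348 percent of all genes, 0.218 percent being higher and 0.131 percent lower. At an unadjusted p under 0.05 there were 28 higher and 1 lower in PC3-ML (15.1%, against 10.51% of all genes), and no other tool was run. SCARNA9 came nearest (1.00, SE 0.21, adjusted p = 0.10): 702.3 and 616.9 in PC3-N and 1565.5 and 1114.0 in PC3-ML, with no overlap. SNORD13P3 differed by 1.14 (adjusted p = 0.22), SNORD13 by 0.78 (0.35) and SNORD46 by 0.62 (0.22). Of the 35 brighter members 30 were above 0, with a median of 0.36, while all genes above that level had -0.03. Members were called without PC3-N replicate 2, where more of all genes were called too, or without PC3-ML replicate 2, where fewer were.

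Over line means, the 4 bone metastatic lines and the 3 others did not differ by limma in any of the 192, nor in any gene (0 percent). At an unadjusted p under 0.05 there were 3 higher and 10 lower members (6.77%, against 12.2% of all genes). The lowest adjusted p was 0.41, for SNORA21 (-0.49). The bone metastatic group holds the lines with the lowest SNORD13, which are the clones, and the line with the second highest, PC3-ML, so its lines are widely spread. Lines that share a parent are not independent, which this comparison treats them as.

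Host genes gave a second reading of the same loci. The span of a measured gene with 1 symbol held 97 of the members, in 75 genes, and the hosts of 91 others, GAS5, RPL13A, NOP56 and SNHG14 among them, had no probe set with 1 symbol. Over the 7 line means the correlation of a member with its host had a median of 0.204 (-0.926 to 0.905), and it was above 0 for 60 of 97. This is a description, since pairs of 1 host and all pairs share the arrays. Among the 32 members called by the F test the median was 0.313.

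Most hosts of the RNAs that fell in the clones were not called. Of the 14 RNAs that fell in Clone 1 and had a measured host, the host was called lower for 2, higher for 2 and not called for 10, with medians of -1.06 for the RNAs and 0.07 for the hosts. For the 9 in Clone 3 no host was called, and the medians were -1.16 and 0.11. Both sets include SNORD13P3, in the span of KIF9, whose signal may be shared with SNORD13. TNPO2, an import receptor, rose in Clone 1 (0.43, limma adjusted p = 0.034) where SNORD41 fell by 2.47 on the log2 scale. It averaged 82.3 ± 4.5 (SD, n = 2) in PC3-ML and 110.9 ± 4.5 in Clone 1. CNOT1, of the deadenylase complex, rose by 0.63 (adjusted p = 0.0059) where SNORA50A fell.

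RPL27A and RPL23A, which encode ribosomal proteins, were the called hosts that fell with their RNAs in Clone 1, by less: RPL27A -0.49 against -1.49 for SNORA3B, and RPL23A -0.34 against -1.36 for SNORD4B. Next to SNORA10 and SNORA5A, RPS2 and TBRG4 differed by 0.17 and -0.04 and were not called. In Clone 3 EIF1AX, a translation initiation factor gene whose span holds SCARNA9L, differed by 0.11 (adjusted p = 0.54).

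Other pairs went together. SNORD59B and ATP5F1B, a subunit gene of ATP synthase, rose in Clone 1 by 0.69 and 0.74, with r = 0.900 over 7 lines. SCARNA5 and ATG16L1, an autophagy gene, were both higher in the PC3 lines (0.85 and 1.11), with r = 0.905. RPL23, around SNORA21, was lower in the PC3 lines by 0.52 where SNORA21 was lower by 0.68.

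**Figure D5:**
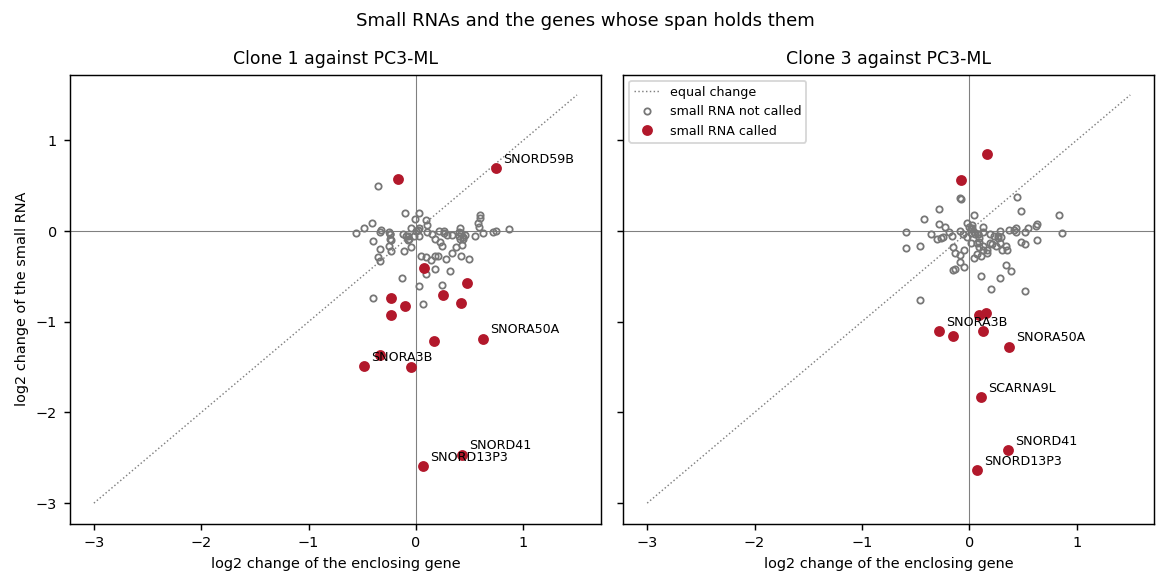
Log2 change of each small RNA (vertical axis) against that of the measured gene whose span holds it (horizontal axis), for 97 pairs in Clone 1 and in Clone 3 against PC3-ML; filled points are RNAs called at an adjusted p under 0.05 and the dotted line marks equal change. The called RNAs with the lowest values, near -2.5, stand at host changes between 0 and 0.43.

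The proteins that bind these RNAs were called in both directions. Of 4 listed core proteins of the box C/D particle 2 were measured. FBL, the methyltransferase fibrillarin, rose in Clone 3 (0.51, limma adjusted p = 0.017) and missed the threshold in Clone 1 (0.36, adjusted p = 0.0501). NOP58 rose in Clone 1 (0.59, adjusted p = 0.037) and missed it in Clone 3 (0.55, adjusted p = 0.066). Their median change was 0.47 in Clone 1 and 0.53 in Clone 3.

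Of the 4 core proteins of the box H/ACA particle, all measured, NHP2 rose in Clone 1 (0.83, limma adjusted p = 0.0025) and NOP10 fell in both clones (-0.30 and -0.50, adjusted p = 0.019 and 0.0032). DKC1, the pseudouridine synthase dyskerin, and GAR1 were not called in either. Against the DU-145 lines DKC1, NHP2 and NOP10 were higher in the PC3 lines, by 0.42, 0.89 and 0.19.

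Of 15 measured factors for particle assembly, capping and Cajal bodies, among 17 listed, 4 rose and 2 fell in Clone 1 and 2 rose and 1 fell in Clone 3. PIH1D1, of the chaperone complex that assembles box C/D particles, rose in both (1.25 and 1.16, SE 0.17, limma adjusted p = 0.0012 and 0.0036). RUVBL1, an ATPase of that complex, rose by 0.39 and 0.40. SHQ1, a dyskerin chaperone, rose in Clone 1 (0.47) and did not pass in Clone 3 (0.18). TGS1, which remodels the RNA cap, and ZNHIT3 fell in Clone 1 (-0.43 and -0.32). NOLC1, a chaperone of nucleoli and Cajal bodies, was called higher in Clone 1 (0.20) and lower in Clone 3 (-0.25). The median over the 15 was 0.16 in Clone 1 and 0.03 in Clone 3.

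Of 25 hosts listed as non-coding 6 were measured, and ZFAS1, a carrier of box C/D RNAs, was the 1 called in the clones (-0.41 and -0.42, limma adjusted p = 0.0081 and 0.011). It was also lower in the PC3 lines than in the DU-145 lines (-0.43). So was TAF1D (-0.50), which stood on that list although it encodes a protein. Of the 15 genes for RNA polymerase I and ribosome assembly, all measured, POLR1A, POLR1B and TAF1A rose in Clone 1 (0.51, 0.73 and 0.79), and POLR1D fell in Clone 3 (-0.92). Between the PC3 and DU-145 lines 9 were higher and 1 lower, with a median of 0.46. The RNAs known for pre-rRNA cleavage were measured for 3 of 12 listed: beside SNORD13, SNORD14C and SNORD14E changed by -0.42 and -0.28 in Clone 1 and by -0.49 and -0.28 in Clone 3, and did not pass.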

How the data were processed

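Total RNA, isolated with the Qiagen RNeasy Mini kit and labelled with the NuGen Encore Biotin Module per the labels' protocols, was hybridised to 14 arrays. The authors deposited linear intensity values after RMA, per the submitters' processing notes; the RMA version is not given in the sources used here. Values ran from 18.5 to 8654, with array medians of 29.9 to 31.6. The labels give no batch.

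Of 28829 probe sets 19291 carried 1 symbol in the platform annotation, which gave 18372 genes. 198 of these probe sets belonged to the 192 members. Values were taken as log2 with no pseudocount and no filter. A mean per line was fitted to 14 arrays (limma 3.58.1, R 4.3.3, 7 residual degrees of freedom). Genes were called at a Benjamini-Hochberg adjusted p under 0.05 over all genes, two-sided. Bone labels were compared on 7 line means. The fit was tested on simulated data. The number of arrays limits the precision, and a change near the floor is a low estimate.

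Hosts are genes of the RefSeq table (GRCh38.p14) whose span holds the whole RNA; strand was not used, because that table has none. The members, the gene lists and the rules were chosen with earlier results of these data known. Named are the brightest members (6 H/ACA, 6 C/D, 3 Cajal body), those with the widest range among F test calls (8, 8, 3), up to 5 called per direction and comparison without overlap, up to 4 per list, their hosts and the markers; others were named after their values were seen. Alternatives were quantile normalization, a filter on dim probe sets, an offset of 16 before log2, a trend in the prior, the replicate number as a block, the members' median removed from each array, all probe sets averaged, and each array left out. Sequences of the small RNAs themselves are not printed.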

Additional observations from a re-analysis of the deposited data

Results flagged for a closer look

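SNORD78, carried by GAS5, had 1 low line among the 4 labelled bone metastatic. Its level in PC3-N(PDGFRα) was 48.7, and the gap to the next line took up 0.927 of the range of the 4 line means, above Dixon's critical value of 0.829. PC3-N, the line it was made from, read 33.4 and 72.0, and PC3-N(PDGFRα) differed from it by -0.0088 on the log2 scale (SE 0.29). It was 1 of 32 named members tested in this way, and chance alone marks about 1 in 20 groups.

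The change that went with PDGFRα overexpression differed between the PC3-N and DU-145 backgrounds for 2 RNAs by limma's test of the difference. The difference, PC3-N minus DU-145, was -1.19 for SNORD13P1 (adjusted p = 0.014) and -0.86 for SNORD79 (adjusted p = 0.033). SNORD13P1 lay at the floor in both PC3-N lines. Each of the 2 calls was lost without at least 1 array.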

How the results depend on the processing

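Of 480 values of named members under the alternatives, 451 kept their direction and side of the threshold and 29 fell short of it; none turned. The 24 class medians moved by at most 0.015 on the log2 scale when all probe sets of a gene were averaged. With a trend in the prior, 46 members were called in Clone 1 against PC3-ML (30 as reported), 5 in DU-145 (PDGFRα) against DU-145 (2) and 1 in PC3-ML against PC3-N (0). The filter on dim probe sets gave 1 where PC3-ML is set against PC3-N, and 1 where PC3-N(PDGFRα) is; removing the members' array median gave 1 in the latter. PC3-N in place of PC3-ML, added after the data were seen, gave 11 calls in Clone 3 in place of 23; 10 RNAs were lower against both. With 1 array left out, where a line's lone array is assumed to vary like the other lines, counts ran from 14 to 37 in Clone 1 and 9 to 25 in Clone 3 against PC3-ML. They ran from 2 to 5 in DU-145 (PDGFRα), 0 to 3 for the difference of the PDGFRα effects, 0 to 2 in PC3-ML against PC3-N, 0 to 1 in PC3-N(PDGFRα), 39 to 49 for PC3 against DU-145 lines and 49 to 61 by the F test. Whether the replicate numbers pair some of the samples was not settled by these values. Deviations of same-numbered arrays correlated at -0.20 to 0.24 over 21 pairs of lines, above 0.1 in 5. Over the members they correlated at -0.31 to 0.57, also above 0.1 in 5. With the replicate block the counts were 62 by the F test, 48 for PC3 against DU-145 lines, 33 in Clone 1, 23 in Clone 3, 2 in DU-145 (PDGFRα), 2 for the difference and 0 in both other pairs. For the bone label it could not be fitted, and all other settings gave 0 there. The shares of all genes called under the alternatives that keep all arrays are not given here. The number of arrays and the floor limit what can be called.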

Other observations

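Short RNA genes outside the families described also showed called changes in the clones. MIR210, the precursor of a microRNA known as induced by low oxygen, had a mean of 70.4 ± 4.6 (SD, n = 2) in PC3-ML. Clone 1 had 53.1 ± 3.4 and Clone 3 had 49.2 ± 3.6, a change of -0.41 and -0.52 (limma adjusted p = 0.012 and 0.0070). RN7SL737P, a pseudogene of the signal recognition particle RNA, averaged 114.8 ± 25.5 in PC3-ML and 187.1 ± 37.6 in Clone 3, where it was the 1 of the 196 short RNAs called higher (0.71, adjusted p = 0.027). RMRP, the RNA of ribonuclease MRP, which takes part in pre-rRNA cleavage, had 238.1 ± 10.2 in PC3-ML, against 285.9 ± 33.8 for Clone 1 and 194.0 ± 72.7 for Clone 3, and was called in neither. These genes were chosen after their values had been seen.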
